A study of Rattus norvegicus with 14 samples.

Results

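The 10 genes described here mark inhibitory interneurons and output neurons of the retina. They were chosen by symbol from the 16472 genes measured. Gad1, Gad2, Slc32a1, Calb1 and Calb2 are used as markers of amacrine and horizontal cells. Nefl, Nefm, Nefh, Thy1 and Sncg are used as markers of ganglion cells. Each of the 10 had 1 transcript in the table, and no other gene of the table overlapped its span. The question was how the inhibitory cell genes and the ganglion cell genes compare in the retina, in the pineal gland and in a mixture of tissues.

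RNA came from Sprague-Dawley rats 6 to 8 weeks old, under a day of 14 h light and 10 h dark, with no genotype or drug given in the labels used here. Retinas and pineal glands were taken at 6 zeitgeber times (hours after lights on): ZT1, ZT7, ZT13, ZT15, ZT19 and ZT23. Each of these 12 libraries was made from tissue pooled from 10 animals. The mixed tissue libraries, 1 at ZT7 and 1 at ZT19, held equal RNA of 15 tissues from 3 rats, among them 6 parts of the brain and spinal cord (cortex, cerebellum, midbrain, hypothalamus, hindbrain, spinal cord), the retina itself and the pituitary. The pineal gland was not in that mixture. With 1 library per tissue and time, the replicates of a tissue are its libraries over the day, and their spread holds time as well as error.

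Ganglion cells are the only retinal neurons that send axons out of the eye, through the optic nerve to the brain. Amacrine and horizontal cells are interneurons that shape the signal on its way from the photoreceptors, most of them with the transmitters GABA or glycine. The pineal gland secretes melatonin at night, and its main cell, the pinealocyte, shares photoreceptor genes with the retina. All 10 genes are also used by neurons of the brain, so none of them is specific to the retina.

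Gad1 and Gad2, the enzymes that make GABA from glutamate, lie in rn4 at chr3:52789370-52830038 and chr17:96259430-96321855. Slc32a1, the transporter that loads GABA and glycine into synaptic vesicles, lies at chr3:149342399-149347124. Calb1 (calbindin) at chr5:30455665-30480122 and Calb2 (calretinin) at chr19:40023072-40051150 are calcium binding proteins of the EF-hand type. Nefl, Nefm and Nefh, the light, medium and heavy neurofilament chains that stiffen large axons, lie at chr15:47636303-47640176, chr15:47698372-47703341 and chr14:85594789-85604774. Thy1, a glycoprotein of the neuron surface, lies at chr8:47027672-47032486. Sncg (gamma-synuclein), a small protein of axons and endings, lies at chr16:10025978-10030513.

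The bases upstream of Gad2 and Slc32a1 are shown because these genes were near 0 in the pineal gland and present in both other tissues, and because their windows lie outside the gene's own RefSeq span. RefSeq's promoter table (GRCr8) matched 4 of the 10 genes by gene ID, Gad1, Gad2, Slc32a1 and Sncg. The windows of Gad1 and Sncg reach into the gene's own RefSeq span and were searched but are not printed. The sequences hold the 250 bases before each gene's start, 5′ to 3′ on the gene's own strand, for Gad2 chr17:89671468-89671717 (plus strand) and for Slc32a1 chr3:167686995-167687244 (plus strand). Capitals mark a GC box (GGGCGG on either strand).
Gad2: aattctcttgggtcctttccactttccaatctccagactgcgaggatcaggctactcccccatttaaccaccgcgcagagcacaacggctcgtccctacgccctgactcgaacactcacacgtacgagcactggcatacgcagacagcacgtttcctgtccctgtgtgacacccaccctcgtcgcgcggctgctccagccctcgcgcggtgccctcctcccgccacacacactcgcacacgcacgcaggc
Slc32a1: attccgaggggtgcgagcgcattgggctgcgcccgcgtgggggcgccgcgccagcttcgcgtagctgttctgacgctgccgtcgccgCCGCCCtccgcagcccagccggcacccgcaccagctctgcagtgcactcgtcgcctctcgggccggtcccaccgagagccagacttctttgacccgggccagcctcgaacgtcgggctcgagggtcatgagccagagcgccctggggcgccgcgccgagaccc
Both windows are rich in G and C, 62.0% for Gad2 and 73.6% for Slc32a1, against a median of 51.2% over 33469 windows of this length. Of 6 motifs searched on both strands, the GC box was found in the windows of Gad1, Slc32a1 and Sncg and in 30.47% of all windows. TATAAA was found in the window of Gad1 and in 12.93% of all windows. TAATCC (in 6.337% of all windows), CACGTG (5.593%), TGACGTCA (1.587%) and CAGCTG (11.97%) were in none of the 4, and the Gad2 window held none of the 6. No motif overlapped another in these 4 windows.

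Values are FPKM, which divide a transcript's fragments by its length and by the fragments of its library, so levels of different genes are compared per length. Summed FPKM ran from 152281 to 212634 per library. The retina ZT7 library had 179277 against 152281 to 161184 in the other 5 retina libraries, and both mixed libraries (212634 and 191467) were above every other. Depth is not given by FPKM; 1 fragment in a transcript of 1 kb was worth an estimated 0.0216 to 0.0527 FPKM. The tissues matched their labels: photoreceptor genes (11 of 12 listed were measured) summed to 14762 to 19525 FPKM in the retina and 841 to 1043 in the pineal gland, and pinealocyte genes (8 of 8) to 1024 to 1916 in the retina and 5026 to 5621 in the pineal gland. Tph1, the first enzyme of serotonin synthesis, averaged 0.448 FPKM in the retina. Lens genes (6 of 13) differed between retina libraries, from 77.3 FPKM at ZT7 to 1312 at ZT19. Oligodendrocyte genes (10 of 10), of the cells that myelinate axons in brain and optic nerve, summed to 12.3 to 16.4 FPKM in the retina and 9.61 to 27.5 in the pineal gland, against 3733 to 4300 in mixed tissue.

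In the retina all 10 genes were well above 1 FPKM in every library. Calb2 led, with a lowest, median and highest value of 142, 147 and 182 FPKM over the 6 libraries, which placed its mean at percentile 99.51 of all genes. Sncg came next with 77.3, 89.5 and 105 FPKM. The ranges of these 2 genes did not overlap each other or any other of the 10. Gad1 (51.9, 56.4 and 61.7 FPKM), Thy1 (51.6, 52.0 and 58.9) and Nefl (45.7, 52.2 and 55.6) followed with overlapping ranges. Nefm (25.9, 28.6 and 31.3 FPKM) and Slc32a1 (23.5, 26.2 and 28.2) overlapped each other, as did Calb1 (15.8, 16.6 and 22.5) and Nefh (14.7, 15.9 and 16.7). Gad2 was lowest at 10.6, 11.1 and 12.4 FPKM. The order thus interleaved the inhibitory and the ganglion cell genes.

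The spread over the retina libraries was small, with a coefficient of variation from 4.76% for Nefh to 15.5% for Calb1. Summed over 5 genes each, the inhibitory cell genes gave 252 to 305 FPKM and the ganglion cell genes 223 to 267 per retina library. The first sum divided by the second was 1.00 to 1.23, with 252.4 against 251.9 FPKM at ZT13. Calb2 alone made up 142 to 182 FPKM of the inhibitory sum. The median of the 5 genes went the other way in each retina library, at 23.5 to 28.2 FPKM for the inhibitory and 45.7 to 55.2 for the ganglion cell genes.

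**Figure D1:**
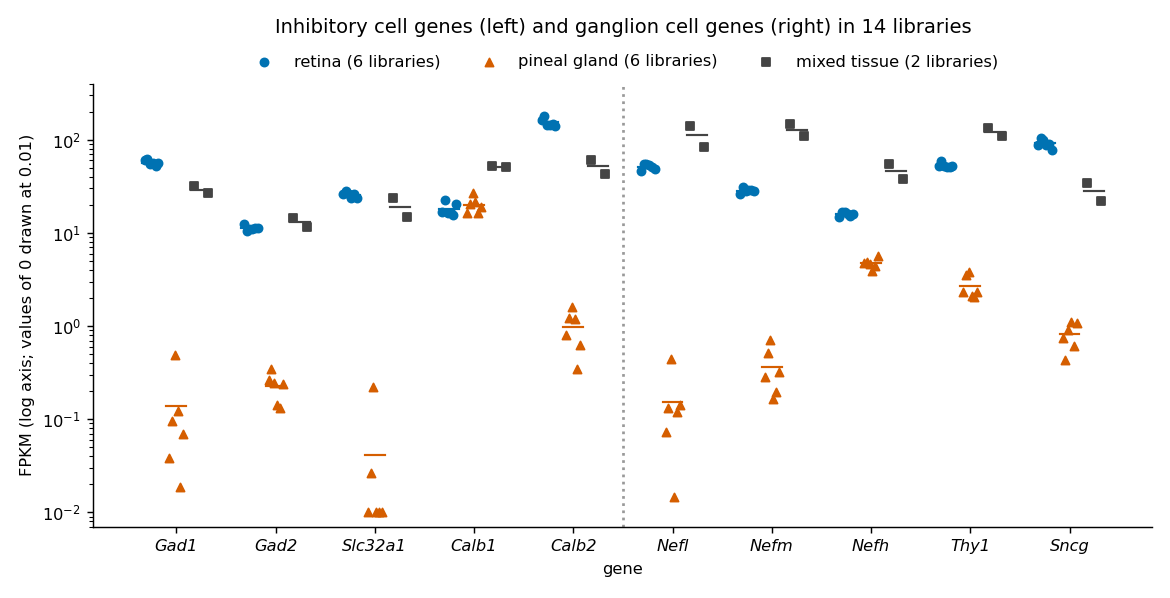
FPKM of the 10 genes in each of the 14 libraries on a log axis, 1 point per library with values of 0 drawn at 0.01, and short lines at the mean of each tissue. The retina points of each gene lie close together, the pineal points lie far lower except for Calb1, and both mixed tissue points lie above the retina for Nefl, Nefm, Nefh, Thy1 and Calb1.

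The pineal gland showed a different picture. Calb1 was there at 16.2, 19.7 and 26.8 FPKM (lowest, median and highest of 6 libraries), a range that overlapped the retina's. Nefh was present at 3.91, 4.73 and 5.58 FPKM and Thy1 at 2.03, 2.31 and 3.85. These 3 were the only ones of the 10 above 1 FPKM in every pineal library. Calb2 (0.344, 0.998 and 1.61 FPKM) was above 1 FPKM in 3 of 6 libraries and Sncg (0.431, 0.826 and 1.12) in 2 of 6.

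The other 5 stayed under 1 FPKM in all 6 pineal libraries. Nefm lay at 0.165, 0.305 and 0.707 FPKM and Gad2 at 0.133, 0.240 and 0.348. Nefl lay at 0.0146, 0.126 and 0.446 FPKM and Gad1 at 0.0187, 0.0828 and 0.489. Slc32a1 was listed at 0 in 4 libraries, at 0.0265 FPKM at ZT7 and at 0.224 at ZT13. Several of these values are a few fragments by the estimate above.

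All 10 genes passed the filter of 1 FPKM in 2 libraries, and 5 of them passed it without any pineal library at that level. Of the 10, 9 were higher in the retina than in the pineal gland and 0 were lower, against 32.0% of all 11656 genes higher in the retina and 36.9% higher in the pineal gland, 68.9% in all (limma on log2(FPKM + 1), adjusted p under 0.05). In bulk tissue, fewer cells of a type and less RNA per cell cannot be told apart. Each library is 1 pool, and the p-values measure the spread between these pools over the day. All tissue comparisons shared 1 estimate of that spread per gene, from all 14 libraries. The 2 mixed libraries gave little of it, so p-values against mixed tissue rest mostly on the spread within retina and pineal gland.

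Of the inhibitory cell genes, 4 of 5 were higher in the retina. Calb2 averaged 154.0 ± 15.3 FPKM (SD, n = 6) in the retina and 0.966 ± 0.462 (SD, n = 6) in the pineal gland, a ratio of means of 159. Its log2 difference was 6.33 (SE 0.14, limma adjusted p = 1.206e-14). Gad1 averaged 57.0 ± 3.78 FPKM against 0.139 ± 0.176, with a log2 difference of 5.68 (SE 0.09, limma adjusted p = 5.097e-16). Its ratio of means was 410, and 828 without the pineal ZT13 library. Slc32a1 averaged 25.6 ± 1.82 FPKM in the retina, and its log2 difference was 4.68 (SE 0.10, limma adjusted p = 7.45e-15). Gad2 averaged 11.2 ± 0.645 FPKM against 0.228 ± 0.0809, 49.3 times as much, with a log2 difference of 3.32 (limma adjusted p = 1.15e-14). For these genes the pineal group did not overlap the retina in any library.

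Calb1 was the exception. It averaged 18.0 ± 2.80 FPKM (SD, n = 6) in the retina and 20.04 ± 3.93 (SD, n = 6) in the pineal gland, and the log2 difference of -0.14 (SE 0.12) did not pass (limma adjusted p = 0.3286). Its direction turned with the scaling, at 0.04 after quantile normalization. Calb1 lay at percentile 88.36 of all genes in the retina and 87.88 in the pineal gland, while Calb2 lay at 99.51 and 44.02.

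All 5 ganglion cell genes were higher in the retina. Sncg averaged 91.3 ± 9.83 FPKM against 0.814 ± 0.269, 112 times as much, with a log2 difference of 5.68 (SE 0.12, limma adjusted p = 7.45e-15). Nefl averaged 51.6 ± 3.88 FPKM against 0.155 ± 0.1504, with a log2 difference of 5.52 (SE 0.12, limma adjusted p = 6.732e-15). The ratio of its means was 334, and 535 without the pineal ZT13 library. Nefm averaged 28.5 ± 1.74 FPKM against 0.365 ± 0.207, a log2 difference of 4.45 (limma adjusted p = 1.369e-14). Thy1 averaged 53.1 ± 2.87 FPKM against 2.69 ± 0.796, a log2 difference of 3.90 (limma adjusted p = 2.209e-13). Nefh differed least of the 5, with 15.8 ± 0.754 FPKM against 4.72 ± 0.553, a ratio of 3.36 and a log2 difference of 1.56 (SE 0.09, limma adjusted p = 6.594e-10).

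The median log2 difference was 4.68 over the inhibitory and 4.45 over the ganglion cell genes, beside -0.03 over all genes tested. A difference between the classes was not tested. The spread within each class, from -0.14 to 6.33 and from 1.56 to 5.68, was far wider than the distance between their medians. For genes this low in the pineal gland the size of the log2 difference rests on the 1 FPKM added: for Gad1 it was 8.13 with 0.1 FPKM added and 3.59 with 5.

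**Figure D2:**
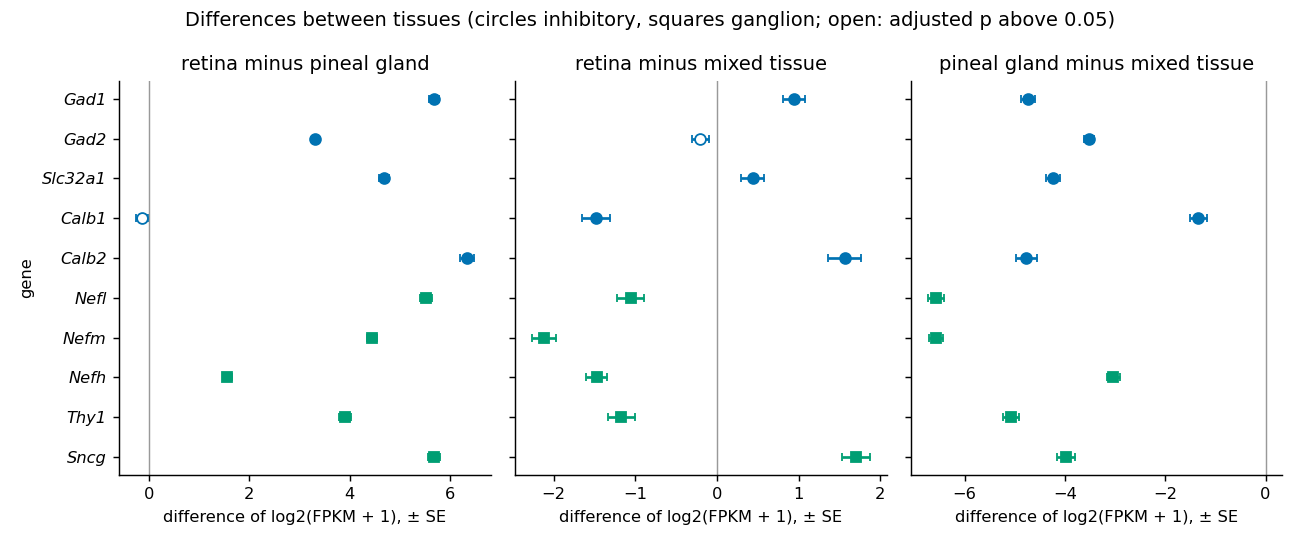
Fitted differences in log2(FPKM + 1) of the 10 genes for retina minus pineal gland, retina minus mixed tissue and pineal gland minus mixed tissue, with bars of 1 standard error, circles for inhibitory and squares for ganglion cell genes. Open symbols have an adjusted p above 0.05 (Calb1 on the left, Gad2 in the middle), and the ganglion cell genes other than Sncg lie above 0 on the left and below 0 in the middle.

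The pineal gland's neurofilament genes were out of proportion to the retina's. In each retina library Nefl was 3.07 to 3.35 times Nefh and Nefm was 1.68 to 1.88 times Nefh. In the pineal gland Nefl was 0.00373 to 0.0960 times Nefh and Nefm 0.0423 to 0.152 times, so Nefh was the leading chain in all 6. Genes of sympathetic and peripheral neurons, whose fibres reach the gland, summed to 2.66 to 5.44 FPKM there (7 of 8 measured). Npy made up most of that sum, at 2.30 to 5.26 FPKM. Th, Dbh, Phox2a, Prph, Slc6a2 and Hand2 were under 1 FPKM in every pineal library. The source of the pineal Nefh was not tested.

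Other pairs of related genes were compared in the same way. Gad1 was 4.597 to 5.84 times Gad2 in the retina, 2.18 and 2.28 times in the mixed libraries and 0.141 to 2.01 times in the pineal libraries. Calb2 was 6.90 to 9.72 times Calb1 in the retina, 1.16 and 0.850 times in mixed tissue and 0.0210 to 0.0603 times in the pineal gland. Sncg was 1.47 to 1.91 times Thy1 in the retina but 0.255 and 0.200 times in mixed tissue. In these 3 pairs the ranges of retina and mixed tissue did not overlap. Gad1 was 1.99 to 2.41 times Slc32a1 in the retina and 1.35 and 1.81 times in mixed tissue, also without overlap. In the 2 pineal libraries with a Slc32a1 value that ratio was 2.18 and 3.65, the latter from a Slc32a1 value of 0.0265 FPKM at ZT7. Thy1 was 0.940 to 1.13 times Nefl in the retina and 0.949 and 1.32 times in mixed tissue, and these ranges met. These ratios are free of the library's scale, and they were not tested.

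**Figure D3:**
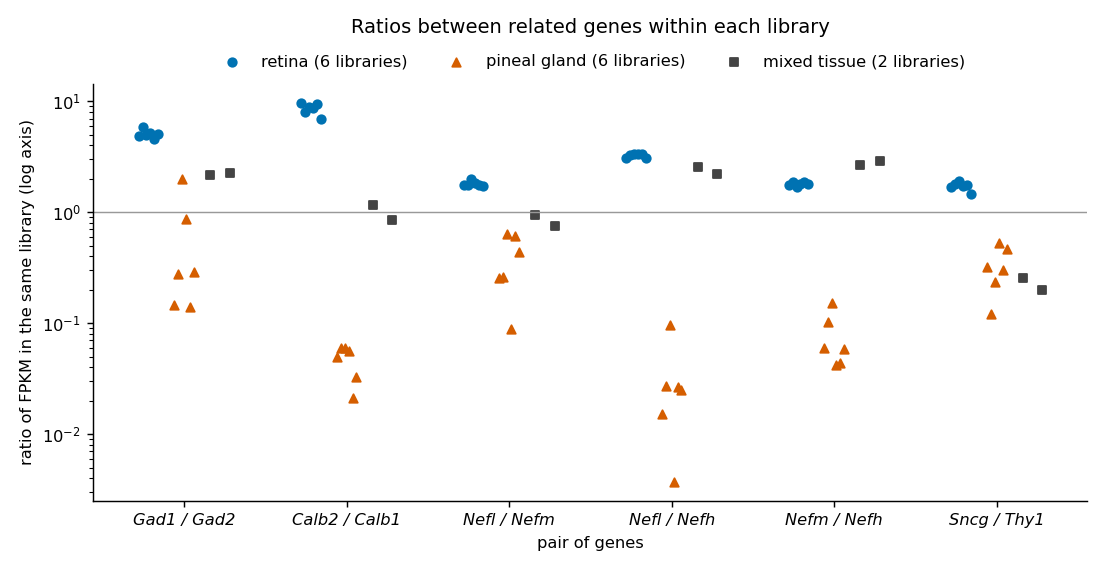
Ratio of FPKM within each library for 6 pairs of related genes, 1 point per library on a log axis, by tissue. The retina points of each pair cluster tightly above 1, for example Nefl to Nefh at 3.07 to 3.35, and the pineal points lie below them, spread widely.

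The pineal library of ZT13 stood apart for several of these genes. It held the highest pineal value of 7 of the 10, under the deposited scale and under both rescalings tried. Gad1 was 0.489 FPKM there and 0.0187 to 0.122 in the other 5, Slc32a1 was 0.224 against 0 to 0.0265, and Nefl was 0.446 against 0.0146 to 0.141. Gad2 (0.243 FPKM, within the other libraries' 0.133 to 0.348), Nefh (4.65, within 3.91 to 5.58) and Sncg (0.905, within 0.431 to 1.12) were not highest there.

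Genes of cerebellar and other brain neurons, picked here after their values were seen, were also highest in that library. Gabra6, the GABA receptor subunit of cerebellar granule cells, was 1.73 FPKM there and 0 to 0.0392 in the other 5 pineal libraries. Pcp2, of Purkinje and rod bipolar cells, was 6.19 against 0 to 0.184. Pvalb (parvalbumin) was 3.35 against 0 to 0.732 and Rbfox3 (NeuN) 0.430 against 0 to 0.0263. The whole list of 12 brain neuron genes, which pinealocytes share in part (Snap25, Slc17a7, Syt1), summed to 1167 FPKM at ZT13, within the 1066 to 1271 of all 6. Oligodendrocyte genes summed to 24.2 FPKM at ZT13, within their 9.61 to 27.5. Lists of other cell types were highest at ZT13: meninges and fibroblast genes summed to 324 FPKM there and 205 to 247 in the other 5, microglia genes to 55.3 against 35.9 to 47.6, endothelium genes to 27.3 against 16.6 to 22.1, and red blood cell genes to 2010 against 1071 to 1934. The part of these cells in the ZT13 values was not tested. Without the ZT13 library the difference from the retina was as large: the log2 difference of Gad1 was 5.76, that of Slc32a1 4.72 and that of Nefl 5.58.

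**Figure D4:**
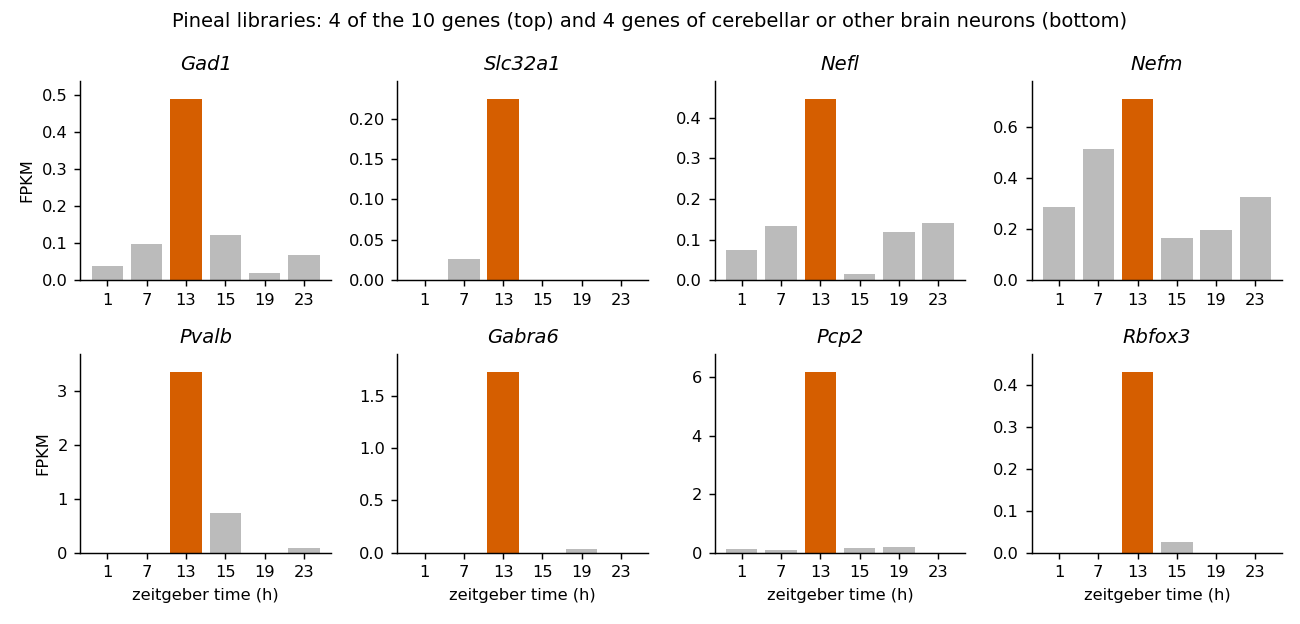
FPKM of Gad1, Slc32a1, Nefl and Nefm (top) and of Pvalb, Gabra6, Pcp2 and Rbfox3 (bottom) by zeitgeber time in the 6 pineal libraries, as bars from 0 with ZT13 in orange and a scale of its own for each gene. All 8 are tallest at ZT13, where Gad1 is 0.489 and Pcp2 6.19 FPKM.

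Against mixed tissue each class held genes in both directions. Of the 10 genes, 4 were higher in the retina (Gad1, Slc32a1, Calb2 and Sncg) and 5 lower (Calb1, Nefl, Nefm, Nefh and Thy1), beside 18.4% of all 11656 genes higher in the retina and 46.6% higher in mixed tissue, 65.0% in all (limma, adjusted p under 0.05). Of the inhibitory cell genes 3 were higher and 1 lower. Of the ganglion cell genes 1 was higher and 4 lower. The median log2 difference was 0.44 over the first 5 and -1.17 over the second 5, beside -0.30 over all genes.

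That split over all genes depends on scaling. The mixed libraries had the larger summed FPKM, and with library sums set equal 3850 genes were higher in the retina and 4146 in mixed tissue, against 2148 and 5434 as deposited. It was 3769 and 4256 with median ratio scaling, and 5213 and 3540 after quantile normalization. The median of all genes moved to -0.01, -0.03 and 0.19. The 4 higher and 5 lower counts of the 10 genes were the same under all 3. With 0.1 FPKM added in place of 1, 2 were higher and 5 lower, and Gad1 and Slc32a1 no longer passed (limma adjusted p = 0.05091 and 0.289). With the ZT7 and ZT19 libraries alone, the times of the mixed libraries, Slc32a1 did not pass either (0.52 log2, limma adjusted p = 0.122).

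Among the inhibitory cell genes, Calb2 was 60.7 FPKM in the ZT7 and 43.3 in the ZT19 mixed library, both below every retina library, with a log2 difference of 1.56 (SE 0.20, limma adjusted p = 6.946e-06). Gad1 was 31.6 and 26.7 FPKM, also below every retina library, with a log2 difference of 0.94 (SE 0.13, limma adjusted p = 1.467e-05). Slc32a1 was 23.5 FPKM at ZT7 and 14.8 at ZT19. The ZT7 value touched the retina's range, and the log2 difference of 0.44 (limma adjusted p = 0.01458) was 0.12 and did not pass without the mixed ZT19 library (limma adjusted p = 0.527). Gad2 was 14.5 and 11.7 FPKM, and its difference of -0.20 did not pass (limma adjusted p = 0.1094). It turned to 0.10 with median ratio scaling, and it passed as lower in the retina without the mixed ZT19 library (-0.34, limma adjusted p = 0.04343) and with 5 FPKM added (-0.15, limma adjusted p = 0.04041). Calb1 was 52.1 and 51.0 FPKM, above every retina library, with a log2 difference of -1.48 (SE 0.17, limma adjusted p = 1.772e-06).

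Among the ganglion cell genes, all 3 neurofilament genes were higher in mixed tissue in both libraries than in any retina library. Nefm was 149 and 109 FPKM, with a log2 difference of -2.12 (SE 0.15, limma adjusted p = 4.373e-09). Nefh was 55.5 and 37.5 FPKM, with a log2 difference of -1.47 (limma adjusted p = 8.787e-08). Nefl was 141 and 82.8 FPKM, with a log2 difference of -1.06 (limma adjusted p = 4.81e-05). It was -0.68 without the mixed ZT7 library. Thy1 was 134 and 109 FPKM, with a log2 difference of -1.17 (limma adjusted p = 1.609e-05). Sncg went the other way, at 34.2 and 21.7 FPKM in mixed tissue and a log2 difference of 1.70 (SE 0.17, limma adjusted p = 4.454e-07).

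Summed over each class, the mixed libraries held 182 and 147 FPKM of inhibitory and 513 and 360 of ganglion cell genes. The ratio of the sums was 0.355 and 0.410, against 1.00 to 1.23 in the retina. In all 10 genes the ZT7 mixed library was above the ZT19 one as deposited. With library sums set equal Calb1 was lower at ZT7, and with 1 library per time no test was possible.

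The retina is 1 of the 15 tissues mixed, so part of each mixed value comes from it. The retina mean divided by 15 was 21.8% of the mixed mean for Sncg, 19.8% for Calb2 and 13.02% for Gad1. For Slc32a1 it was 8.93% and for Gad2 5.71%. For Nefl, Thy1, Calb1, Nefh and Nefm it was 3.07%, 2.91%, 2.33%, 2.27% and 1.48%. This is arithmetic on FPKM, which assumes that the tissues yield equal shares of messenger RNA.

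The pineal gland was below mixed tissue for all 10 genes, beside 45.0% of all genes lower and 19.8% higher in the pineal gland, 64.8% in all (limma, adjusted p under 0.05). Over all genes that split was 2306 higher and 5243 lower as deposited, 3284 and 4546 with library sums set equal, 3539 and 4462 with median ratio scaling, and 5281 and 3474 after quantile normalization. The log2 difference ran from -1.34 for Calb1 (limma adjusted p = 4.601e-06) to -6.57 for Nefl (limma adjusted p = 1.51e-14). The median was -4.24 over the inhibitory and -5.07 over the ganglion cell genes, beside -0.25 over all genes. The 3 comparisons share libraries and are not independent of each other.

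Over the day the retina's 10 genes showed no 24-h rhythm that passed. A cosine and a sine of 24 h per tissue were fitted to 12 libraries, and 0 of 10 genes passed in the retina, beside 1.02% of 10416 genes (limma, adjusted p under 0.05). None of the 10 was under an unadjusted p of 0.05. The fitted peak-to-trough difference ran from 0.12 log2 for Nefm (limma adjusted p = 0.9084) to 0.42 for Calb1 (limma adjusted p = 0.3893). With 6 residual degrees of freedom, small rhythms were not detectable.

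The ZT7 retina library held the highest value for 8 of the 10 genes as deposited, all but Gad2 and Nefl. Its summed FPKM was also the highest of the retina libraries. With library sums set equal it held the highest value for 1 of the 10, and with median ratio scaling for 0.

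In the pineal gland 2 of 10 genes passed, Calb2 and Thy1, beside 20.7% of 10416 genes (limma, adjusted p under 0.05). The 5 genes under 1 FPKM in every pineal library (Gad1, Gad2, Slc32a1, Nefl and Nefm) passed the filter through the retina and had little room to pass here with 1 FPKM added, so nothing is read from the count of 10 against that share. With 0.1 FPKM added Gad2 passed as well (0.99 log2, limma adjusted p = 0.03882). Calb2 was 0.797 FPKM at ZT1, 1.22 at ZT7, 1.61 at ZT13, 1.198 at ZT15, 0.344 at ZT19 and 0.626 at ZT23. Its fitted peak lay at ZT9.63 with a peak-to-trough difference of 0.83 log2 (limma adjusted p = 0.02033). Without the ZT13 library it was 0.72 and did not pass (limma adjusted p = 0.07951), and without ZT23 it just missed (limma adjusted p = 0.05011). Thy1 was 2.30, 3.56, 3.85, 2.09, 2.03 and 2.33 FPKM at the same times. Its fitted peak lay at ZT8.46 with a difference of 0.71 log2 (limma adjusted p = 0.0387). The Thy1 call was lost in 15 of 21 alternatives, among them leaving out the pineal library of ZT7, ZT19 or ZT23 or any 1 retina library.

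Calb1 was 16.2, 20.5, 26.8, 21.5, 16.3 and 18.995 FPKM over the pineal times and did not pass (limma adjusted p = 0.1014). The rhythm differed between retina and pineal gland for 0 of 10 genes, beside 4.95% of all genes (limma test of the interaction, adjusted p under 0.05). Calb2 had the smallest adjusted p of the 10 in that test, 0.1993 by limma, and was the only 1 under an unadjusted p of 0.05.

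**Figure D5:**
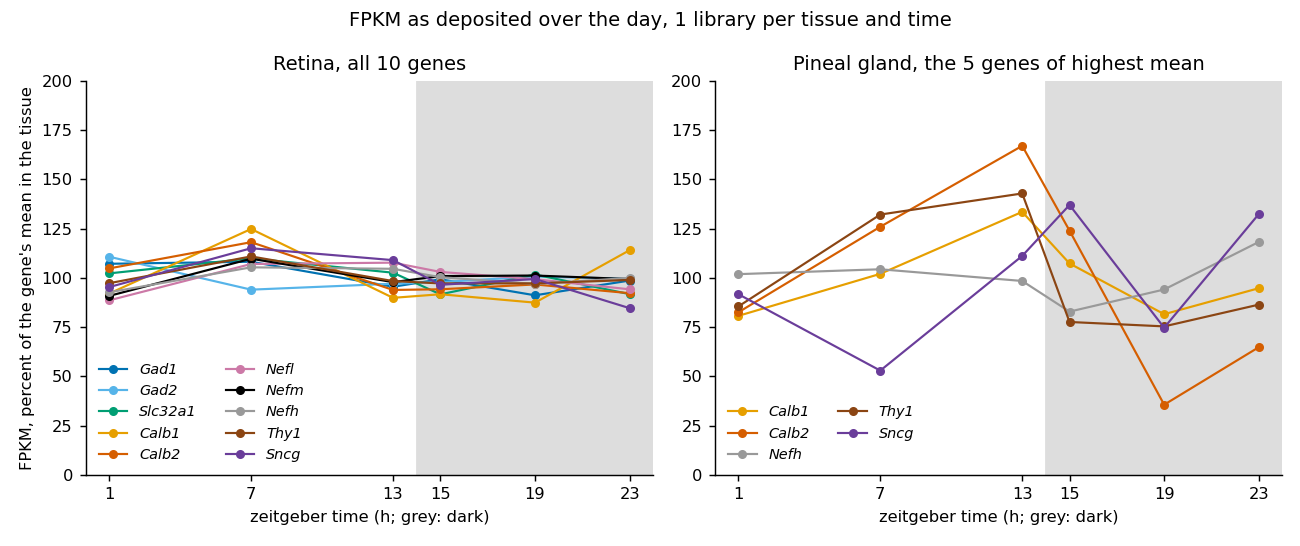
FPKM as percent of the gene's mean in the tissue, by zeitgeber time in hours with the dark shaded, for all 10 genes in the retina and for the 5 of highest mean in the pineal gland, 1 library per point. The retina lines stay closer to their mean than the pineal lines, of which Calb2 and Thy1 are higher at ZT7 and ZT13 than at ZT19.

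Pairs of genes were also compared over the libraries of a tissue. In the retina the Pearson correlation of log2(FPKM + 1) over the 6 libraries was 0.46 to 0.89 for the 10 pairs of ganglion cell genes, with a median of 0.67. It was -0.45 to 0.79 for the 10 pairs of inhibitory cell genes (median 0.27) and -0.94 (Gad2 with Nefh) to 0.83 for the 25 pairs across classes (median 0.19). In the pineal gland the order was not the same: the median was 0.25 for the ganglion pairs (-0.33 to 0.97), 0.72 for the inhibitory pairs (0.14 to 0.97) and 0.67 across classes (-0.47 to 0.94). The genes share each library's scale, which in the retina was largest at ZT7, so these are descriptions of 6 points. In the pineal gland several values were near 0, and Gad1, Slc32a1 and Nefl were far highest at ZT13. Gad1 correlated with Slc32a1 at 0.97 there, although Slc32a1 was listed at 0 in 4 of the 6 libraries. The order of the classes in the pineal gland is therefore not read further.

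Other genes of these cells and pathways were looked at in 6 further lists, which held 132 genes of which 120 were measured, some of them in more than 1 list. Several of them, such as Tfap2b, Tubb3, Chrna6 and Gabra2, were under 1 FPKM in every pineal library. They passed the filter only through retina or mixed tissue, so their direction against the pineal gland was largely set beforehand. The counts of such lists against the pineal gland are therefore descriptions, and nothing is read from them against the shares of all genes. Of 32 other amacrine and horizontal cell genes tested, 25 were higher in the retina than in the pineal gland and 5 lower. Of all 11656 genes, 32.0% were higher and 36.9% lower in the retina. The median log2 difference was 1.69 over the list and -0.03 over all genes. Tfap2b, a transcription factor of amacrine cells, was 37.3 ± 3.63 FPKM (SD, n = 6) in the retina and 0.352 ± 0.264 (SD, n = 6) in the pineal gland (log2 difference 4.84, limma adjusted p = 1.295e-14). Gjb6, a gap junction protein, was lower in the retina at 0.612 FPKM against 4.68, as was Nos1, neuronal nitric oxide synthase, at 0.691 against 4.91 (log2 difference -1.47, limma adjusted p = 0.003904).

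Of 23 other ganglion cell genes tested, 18 were higher in the retina and 3 lower, beside 32.0% and 36.9% of all genes. Their median log2 difference was 2.21. Tubb3, a neuronal tubulin, was 45.9 ± 2.58 FPKM in the retina and 0.428 ± 0.222 in the pineal gland. Chrna6, a nicotinic receptor subunit, was 21.4 ± 1.38 FPKM in the retina and was listed at 0 in all 6 pineal libraries. The transcription factor Isl2 went the other way, at 0.956 ± 0.211 FPKM in the retina and 47.9 ± 20.2 in the pineal gland (log2 difference -4.52, limma adjusted p = 2.671e-10). Slc17a6, the vesicular glutamate transporter of ganglion cells, was 12.2 ± 0.898 FPKM against 55.1 ± 41.0 (log2 difference -1.77, limma adjusted p = 0.000484). Both are used as ganglion cell genes in the retina and were more abundant in the pineal gland.

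Genes that handle GABA and glycine were mixed: of 12 tested 5 were higher in the retina and 2 lower, with a median of 0.35. Of all genes, 32.0% were higher and 36.9% lower in the retina. Slc6a11, a GABA transporter, was 34.3 FPKM in the retina against 0.371. The betaine and GABA transporter Slc6a12 (0.468 against 2.24 FPKM) and the glutamine transporter Slc38a1 (30.4 against 51.4) were lower in the retina. Of 18 GABA receptor genes 16 were higher in the retina and 0 lower (median 1.63), with Gabrr2, of the GABA-C receptor of bipolar cells, at 15.2 FPKM against 0.207 and Gabra2 at 6.92 against 0.122.

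Of 21 other EF-hand genes 12 were higher in the retina and 5 lower (median 0.86), beside 32.0% and 36.9% of all genes. Recoverin (Rcvrn), of photoreceptors, was 680 FPKM against 1.14 and Pvalb 30.1 against 0.694. Cabp5, a calcium binding protein of bipolar cells, was lower in the retina at 11.2 FPKM against 36.1, and Ncald (neurocalcin) at 15.3 against 54.9. Of 16 other neuron cytoskeleton and synuclein genes 9 were higher in the retina and 2 lower (median 0.76). The 2 lower were Nes (0.763 against 1.296 FPKM) and Sncaip (0.243 against 0.549).

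Against mixed tissue, where 18.4% of all genes were higher and 46.6% lower in the retina, 17 of the 32 other amacrine and horizontal cell genes were higher in the retina and 9 lower, with a median log2 difference of 0.48. The 23 other ganglion cell genes had 9 higher and 9 lower (median 0.09). The 12 GABA and glycine handling genes had 5 higher and 3 lower (median 0.36), and the 18 GABA receptor genes 4 higher and 9 lower, near the shares of all genes (median -0.46). The 21 EF-hand genes had 7 higher and 9 lower (median -0.46), and the 16 other cytoskeleton and synuclein genes 5 higher and 9 lower (median -0.45). These medians stand beside -0.30 over all genes and were not recomputed under other scalings. In the pineal gland against mixed tissue, where 19.8% of all genes were higher and 45.0% lower in the pineal gland, the 6 lists had, in the same order, 4 higher and 24 lower, 4 and 16, 4 and 7, 1 and 16, 4 and 13, and 2 and 11.

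No gene of the further lists passed for a rhythm in the retina (0 in each list), where only 1.02% of all 10416 genes passed. In the pineal gland 5 of 31 other amacrine and horizontal cell genes passed, among them Prox1, Slc6a9, Gjb6 and Nos1. Of 23 other ganglion cell genes 8 passed (Isl2, Slc17a6, Gap43, Stmn2, Jam2, Nell2, Map1b and Bex1). Over all genes the share was 20.7%. Several list genes stayed under 1 FPKM in every pineal library and passed the filter through the retina. Among them, Tfap2b, Tubb3 and Gabra2 reached at most 0.860, 0.776 and 0.268 FPKM there. Such genes had little room to pass, so nothing is read from the counts of these lists against that share. Slc17a6 had a peak-to-trough difference of 2.67 log2 with a fitted peak at ZT21.43 (limma adjusted p = 0.001158), and Nos1 one of 2.66 at ZT23.86 (limma adjusted p = 0.0005772). Of the GABA and glycine handling genes 8 of 10 passed, among them Slc6a13, Slc6a12, Gls2, Slc38a1 and Slc38a3. Of the GABA receptor genes 3 of 15 passed, among them Gabrr1 and Gabbr1. Of the EF-hand genes 11 of 21 passed (Hpcal1, Hpca, Ncald, Vsnl1, Cabp1, Cabp4, Cabp5, Rcvrn, Guca1a, Guca1b and Calr), and of the cytoskeleton and synuclein genes 6 of 15, among them Map2 (1.66 log2, peak at ZT14.24, limma adjusted p = 3.505e-05), Dpysl3 and Sncb.

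The genes most like each of the 10 over the 14 libraries were named by Pearson correlation of log2(FPKM + 1), which here mostly follows the differences between the 3 tissues. For Gad1 they were Sphkap, Pak3 and Slc25a27 (0.9993 to 0.9987), for Gad2 Scn1a, Rasgrf1 and Astn1 (0.9987 to 0.9984) and for Slc32a1 Cpne6, RGD1306991 and B3gat1 (0.9992 to 0.9989). For Calb2 they were Camkv, Zfp365 and Accn1 (0.9984 to 0.998), and for Sncg C1ql1, Camkv and Synpr (0.9982 to 0.998). For Nefl they were RGD1305733, L1cam and Faim2 (0.9989 to 0.9987), for Nefm Agap2, Aatk and LOC683626 (0.9982 to 0.9976), for Nefh Nat8l, Slc6a7 and RGD1309873 (0.9963 to 0.9928) and for Thy1 A2bp1, Prkcb and Ptprf (0.9985 to 0.9978). For Calb1, which alone was as high in the pineal gland as in the retina, they were Dram2, Irak1 and Tmem144, at a lower 0.9795 to 0.9715. None of the 10 was among the 3 genes most like another.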

How the data were processed

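RNA of 6 retina, 6 pineal and 2 mixed tissue libraries was sequenced after polyA selection with random primers and 16 PCR cycles, as 101-base paired ends, per the labels' protocols. Cufflinks 1.2.0, TopHat 1.3.1 and the build rn4 are listed, per the submitters' processing notes, without their roles; strandedness is not given in the sources used here. The authors deposited FPKM per RefSeq transcript, from which read depth cannot be read. FPKM is relative to all fragments of a library, so very abundant transcripts lower the others, and some common genes are listed near 0 (Gapdh 0.0715 to 0.567 FPKM), so a 0 is given as listed.

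FPKM of the 16932 transcripts were summed per gene ID (16472 genes), 1 was added to each table start, and log2(FPKM + 1) was tested with limma 3.58.1 in R 4.3.3 (mean-variance trend, two-sided, Benjamini-Hochberg over all genes, threshold 0.05). Genes needed 1 FPKM in 2 libraries: 11656 genes in the tissue fit (14 libraries, 11 residual degrees of freedom) and 10416 in the rhythm fit (12 libraries, 6 residual degrees of freedom). The fits were tested on simulated data. Alternatives were the pseudocount, the filter, other scalings, a replicate block of time of day, fewer libraries and leaving out each library; library sums set equal was added after seeing the data. The members and lists were chosen with earlier results of these data known. Named were the 10 members, the 3 genes most like each, and from each further list the 2 largest called differences between retina and pineal gland in each direction and every gene past the rhythm threshold in the pineal gland. A few genes that this rule would name are not reported here. Of 14 marker lists (127 genes, 111 measured), those that bear on a result are given beside it.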

Additional observations from a re-analysis of the deposited data

Results flagged for a closer look

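Of 20 groups of 6 libraries (10 genes in the retina and in the pineal gland), 4 held 1 library farther from the rest than Dixon's 95% limit. Chance gives about 1 in 20 for independent groups of normally spread values. These groups share libraries and several pineal values are near 0, so the count cannot be judged by that rate. Of these, 3 were the pineal ZT13 library: Gad1 at 0.489 FPKM, Slc32a1 at 0.224 FPKM and Nefl at 0.446 FPKM, each far above the other 5 pineal libraries. Thy1 in the retina ZT7 library, at 58.9 FPKM, was above the other 5 retina libraries, and it was not the highest with library sums set equal (56.5 against 55.1 to 59.3).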

How the results depend on the processing

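The 9 genes higher in the retina than in the pineal gland, the 10 lower in the pineal gland than in mixed tissue and the 0 with a rhythm in the retina were the counts in every alternative run. Calb1 (retina minus pineal gland) turned to 0.041 after quantile normalization, 0.001 with library sums set equal and 0.042 with the ZT7 and ZT19 libraries alone. Gad2 (retina minus mixed tissue) turned to 0.088 after quantile normalization, 0.099 with median ratio scaling and 0.122 with library sums set equal. With 0.1 FPKM added, 2 rather than 4 genes were higher in the retina than in mixed tissue (Gad1 and Slc32a1 were lost, limma adjusted p = 0.05091 and 0.289). Slc32a1 was also lost with the ZT7 and ZT19 libraries alone (0.517, limma adjusted p = 0.122). Leaving out 1 library gave 3 to 4 higher and 5 to 6 lower. The cause of these changes was not tested.

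The 2 pineal rhythms became 3 with 0.1 FPKM added (Gad2 passed), 0 with 5 FPKM added, 1 without the filter, 1 after quantile normalization, 1 with median ratio scaling, 1 with library sums set equal and 0 with the pineal libraries fitted alone; leaving out 1 library gave 0 to 2 (0 without pineal ZT23). For the difference of rhythms, leaving out 1 library gave 0 to 1. Over all genes, the rhythm calls in the retina were 106 and ran from 12 to 415 with 1 library left out, 58 and 191 with 0.1 and 5 FPKM added, 64 without the filter, 179 after quantile normalization and 781 fitted alone. In the pineal gland they were 2160, 535 fitted alone and 889 to 2620 with 1 library left out, and for the difference 516, 324 without the filter and 178 to 828. With ZT7 and ZT19 alone, 2322 and 1982 genes were higher in retina and pineal gland, 1323 and 4105 in retina and mixed tissue, and 1306 and 4458 in pineal gland and mixed tissue. With 1 library left out, genes higher in the retina and in mixed tissue were 1468 to 2270 and 3360 to 5601, and higher in the pineal gland and in mixed tissue 1592 to 2475 and 3346 to 5271.

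Retina and pineal libraries of the same time deviated together by a correlation of 0.050 (ZT1) to 0.266 (ZT23), and 3 of 6 matched their own time best, so the times were not taken as pairs. With time of day as a replicate block 9 genes were higher in the retina than in the pineal gland, and no call of the 10 genes changed. Values near the worth of 1 fragment (0.0216 to 0.0527 FPKM in 1 kb) carry large counting error, and each tissue has 1 library per time.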
